A study of Oryza sativa with 25 samples.

Results

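IAA4, IAA9, IAA12 and IAA26 are rice members of the Aux/IAA family, nuclear repressors of the transcriptional response to auxin. They were taken from the array annotation by symbol or synonym, and they were selected on their array levels, for a fall in callus moved to regeneration medium. The annotation gives them 6 single-gene probe sets of the 57381 on the array, and they make up 4 of the 17905 genes that have a single-gene probe set. IAA4 (LOC4327919) is read by 3 probe sets, IAA9 (LOC4331061), IAA12 (LOC4333512) and IAA26 (LOC4347643) by 1 each, and all 6 passed the filter on low values. That filter asks for 3 arrays above their array median. The growing callus arrays of each probe set alone meet it, so passing it does not show detection in the organs. IAA26 exceeded the median in 15 arrays, and IAA4 in 17 on its probe set of highest mean. LOC4327919 also carries the synonym IAA20, which is used below for LOC4340245 alone.

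RNA from 25 rice samples was hybridized to Affymetrix Rice Genome Arrays, 1 array per sample, in 8 groups. Growing callus had been raised from seed over 3 weeks at 30 °C on MS medium, and 4 further groups had then spent 2, 4, 6 or 8 days on regeneration medium. Whole root, at the stage when leaf 4 was growing, and young leaf, the blade of leaf 4, came from greenhouse plants, and shoot came from plants grown for 4 weeks at 30 °C in a chamber. Each group has 3 biological replicates, and young leaf has 4. The labels used here name no cultivar, and no hormone in either medium. There is no array of callus that stayed on MS medium over the 8 days, so medium, transfer and culture age cannot be told apart. Shoot likewise differs from root and young leaf in its place of growth as well as in organ.

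Aux/IAA proteins bind auxin response factors (ARFs) on the promoters of auxin-responsive genes and keep those genes silent. Auxin joins an Aux/IAA protein to an F-box receptor of the TIR1/AFB group, the repressor is broken down by the proteasome, and the ARFs are released. Many Aux/IAA genes are themselves switched on by auxin, which makes them both brakes and early readouts of the pathway, and in plant tissue culture the balance of auxin and cytokinin is known to steer callus toward shoots or roots.

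Levels below are deposited intensities, scaled so that the 75th percentile of every array is 1. Log2 changes come from 1 limma fit across all arrays, and a call required a change of at least 2-fold with an adjusted p (Benjamini-Hochberg, over all tested probe sets) under 0.05. Array medians ran from 0.220 to 0.355, and replicates correlated at 0.964 to 0.989 across the 37218 tested probe sets. The organ labels were checked with markers. The root silicon transporter gene LSI1 stood at 146.2 to 150.3 in root and at most 7.1 in shoot and 2.37 in young leaf. The light-harvesting gene CAB2R stood at 113.3 to 163 in young leaf and 80.2 to 89.5 in shoot, against at most 0.242 in root. The shoot meristem gene OSH1 stood at 7.3 to 9.79 in shoot and at most 0.318 in root and 0.185 in young leaf. The Rubisco small subunit gene RBCS stood at 68.4 to 107.7 in young leaf but only 1.33 to 1.75 in shoot. In RNA from whole tissue, fewer cells that carry a transcript and less transcript per cell cannot be told apart.

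All 4 genes had their highest mean in growing callus, and their lowest in young leaf or, for IAA4, in shoot. The arrays of shoot and young leaf overlapped for each gene except IAA12. Their fall on regeneration medium is the reason they were chosen, so the values of the callus groups are a description and carry no test. For background, 2.42%, 3.08%, 2.36% and 2.78% of tested probe sets were called lower than growing callus at 2, 4, 6 and 8 days, and 1.13% were called lower at all 4 times. Arrays that all lay below growing callus were found in 12.2%, 15.6%, 20.8% and 28.1% of probe sets at those times. Without quantile normalization the median log2 change of all tested probe sets at 8 days moved from -0.04 to -0.17.

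IAA9 read 12.95, 18.8 and 20.6 in the 3 arrays of growing callus. It read 6.15, 4.11 and 7.3 at 2 days and 6.55, 4.39 and 6.38 at 4 days. It then read 3.25, 1.94 and 2.52 at 6 days and 2.38, 2.49 and 2.03 at 8 days. Every array on regeneration medium lay below every array of growing callus, and the arrays of 6 and 8 days lay below those of 2 and 4 days. The mean went from 17.5 ± 3.99 in growing callus to 2.30 ± 0.241 at 8 days (SD, n = 3 each), a log2 change of -2.79 (SE 0.27), or 6.89-fold lower.

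IAA12 read 6.16, 5.7 and 9.08 in growing callus. At 2 days it read 3.13, 3.71 and 3.79, and at 4 days 2.53, 2.38 and 3.43. At 6 days the arrays held 2.11, 1.93 and 1.01, and at 8 days 0.971, 1.72 and 0.661. Growing callus did not overlap with any later time, while the arrays of 6 and 8 days overlapped each other. The log2 change at 8 days was -2.62 (SE 0.308), or 6.16-fold lower.

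IAA26 read 4.35, 2.43 and 4.05 in growing callus, 1.99, 1.61 and 3.36 at 2 days, and 2.48, 2.01 and 2.24 at 4 days. Both of these times overlapped with growing callus through its replicate 2 at 2.43. At 6 days it read 1.17, 0.692 and 0.889, and at 8 days 0.31, 1.001 and 0.389, all below growing callus. The log2 change was -0.62 at 4 days (SE 0.299) and -2.61 at 8 days, or 6.12-fold lower.

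IAA4, whose overexpression in rice is known to lower the sensitivity to auxin, read 2.83, 3.34 and 3.5 in growing callus on its probe set of highest mean level. It read 2.01, 1.38 and 2.38 at 2 days, and between 2.03 and 2.08 in the 3 arrays of 4 days. At 6 days it read 1.13, 0.83 and 0.993, and at 8 days 0.557, 1.14 and 0.428. No array on regeneration medium reached the growing callus arrays. The log2 change at 8 days was -2.17 (SE 0.281), and its other probe sets gave -1.59 and, for the one whose _x_at suffix marks probes that can also match related transcripts, -1.86.

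**Figure D1:**
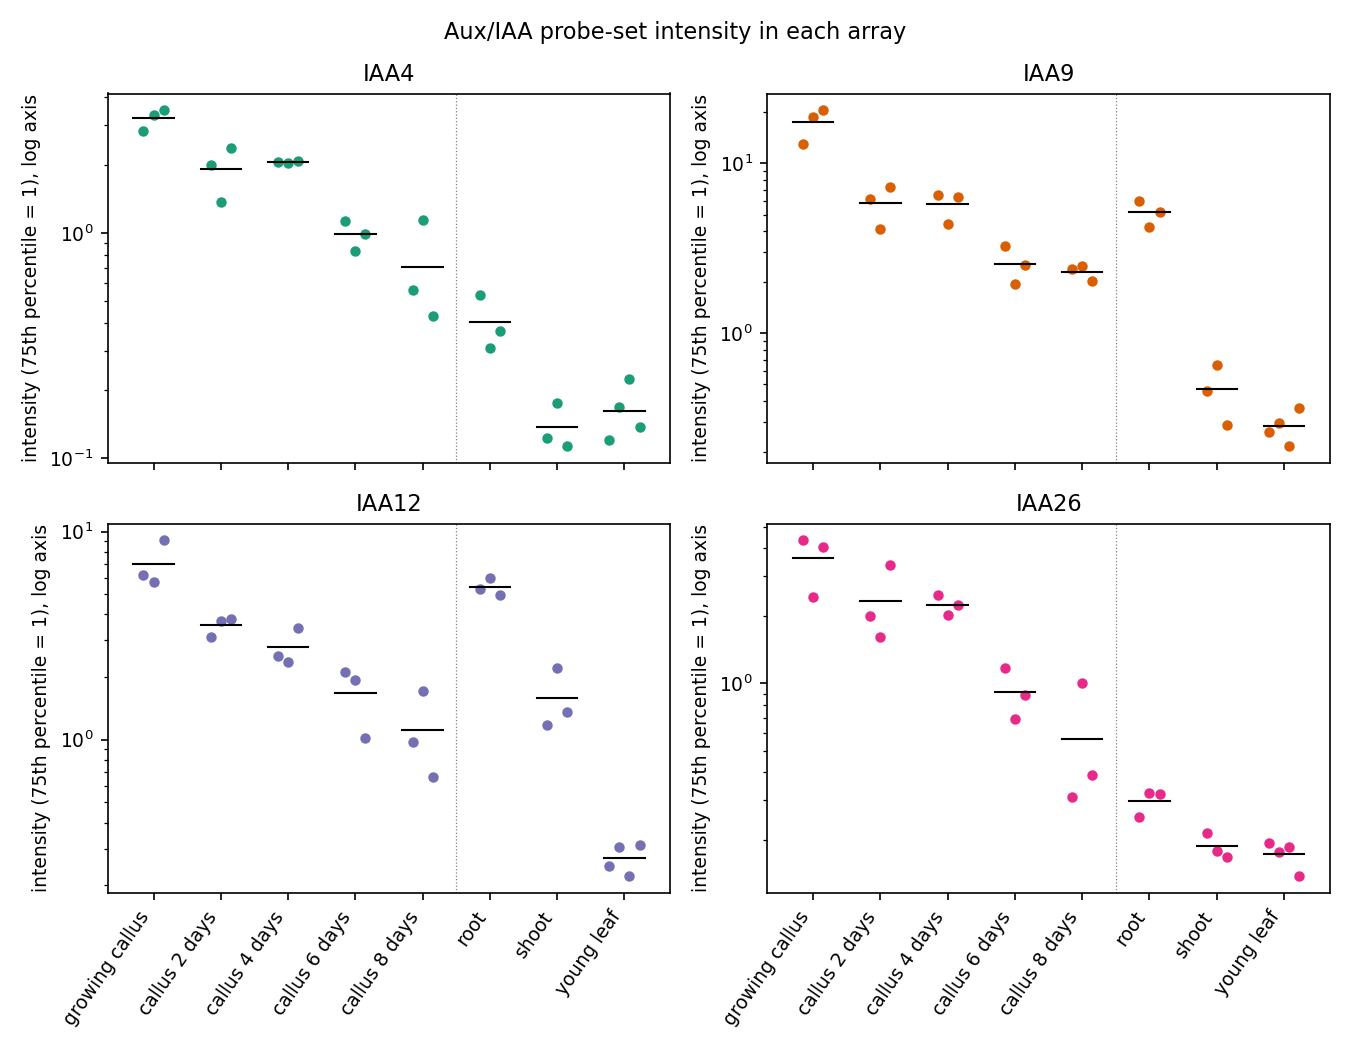
Intensity of IAA4 (the probe set of highest mean), IAA9, IAA12 and IAA26 in each of the 25 arrays on a log axis, 1 panel per gene, with points for arrays and black lines for group means. In all 4 panels growing callus has the highest mean; IAA9 and IAA12 are also high in root, with means of 5.15 and 5.41, and IAA4 and IAA26 are not, with 0.402 and 0.299.

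The steps between times are given for each gene as a description, and differences between genes were not tested; the SE of a change from growing callus was 0.27 to 0.308. IAA9 had made 54.6% of its 8 day log2 change by 2 days. IAA4, IAA12 and IAA26 had made 33.9%, 35.3% and 24.4% by then. From 2 to 4 days the log2 means of IAA4, IAA9 and IAA26 moved by 0.12, 0.01 and 0.02, and that of IAA12 by -0.37. The step from 4 to 6 days was -1.02 for IAA4, -1.13 for IAA9, -0.69 for IAA12 and -1.26 for IAA26. From 6 to 8 days IAA9 moved by -0.15, and the other 3 genes by -0.53 (IAA4), -0.64 (IAA12) and -0.73 (IAA26). For each of the 4 genes the arrays of 2 and 4 days overlapped, and so did those of 6 and 8 days.

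**Figure D2:**
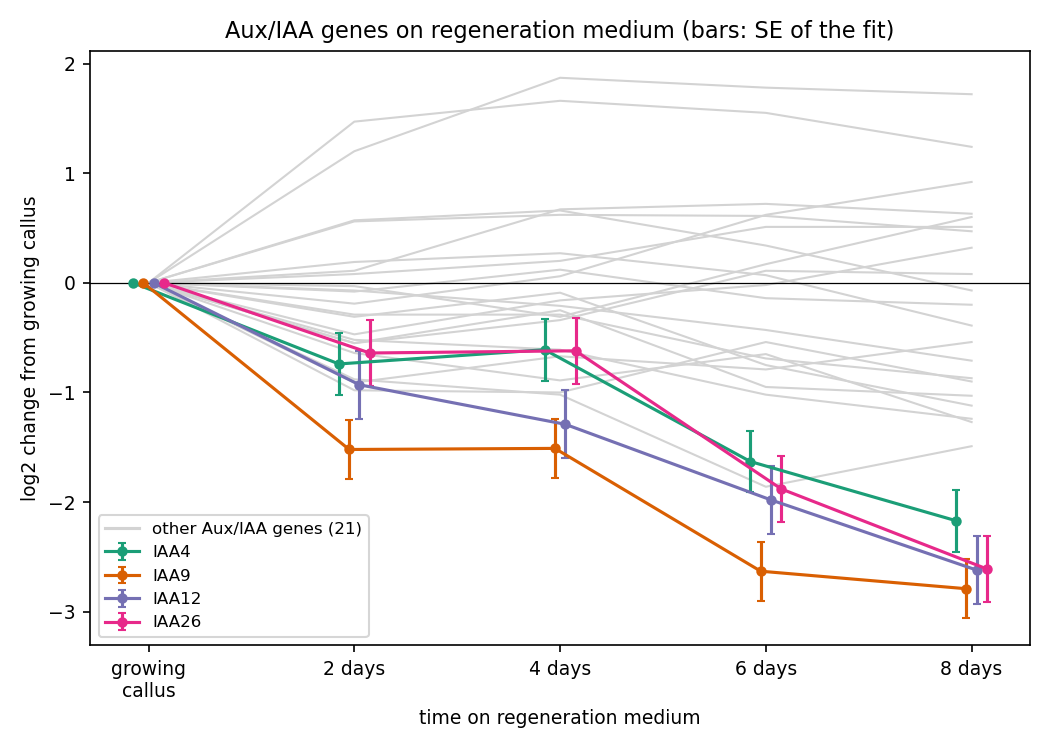
Log2 change from growing callus at 2, 4, 6 and 8 days for the 4 genes in colour, with bars for the SE of the fit, and for the other 21 tested Aux/IAA genes as grey lines without bars. IAA9 stands at -1.52 by 2 days while IAA26 stands at -0.64, and at 8 days all 4 lie between -2.79 and -2.17.

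At 8 days 1 array stood apart in these genes. Replicate 2 held the highest 8 day value of each, at 1.14 for IAA4, 1.72 for IAA12 and 1.001 for IAA26, and at 2.49 for IAA9, where the 3 arrays lay close together. Over all tested probe sets, 1.41% were at least 2-fold lower in that array than in both other 8 day arrays and 0.508% were at least 2-fold higher, and it correlated with them at a mean of 0.968. Its green tissue markers read 5.97 for the plastocyanin gene PETE, 1.96 for CAB2R and 1.64 for RBCS, against 6.65 to 6.94, 1.25 to 2.13 and 2.47 to 2.8 in the other 2. The part of these differences in the result was not tested. Without it the 8 day log2 changes were -2.55 for IAA4, -2.86 for IAA9, -2.99 for IAA12 and -3.05 for IAA26.

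The genes were picked for their fall in callus and not for their organ levels, so differences between organs were tested. Earlier results of these data were known, however, when the genes and tests were chosen. IAA9 and IAA12 stood far higher in root than in young leaf, and IAA4 and IAA26 were low in all 3 organs. At the thresholds used, 16.5% of tested probe sets were called lower in young leaf than root and 15.5% higher, 13.5% were called lower in shoot than root and 15.5% higher, and 15% were called lower in shoot than young leaf and 16.5% higher. Without quantile normalization the median log2 difference of all tested probe sets moved from -0.02 to -0.19 for young leaf minus root, from 0.05 to -0.23 for shoot minus root and from -0.05 to -0.17 for shoot minus young leaf. The share of higher calls in shoot minus root then moved from 53.5% to 41.8%. Arrays of young leaf all lay below root in 35.2% of probe sets, shoot below root in 41.4% and shoot above young leaf in 25.7%.

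IAA9 read 6.04, 4.25 and 5.17 in root and 0.459, 0.655 and 0.289 in shoot. In young leaf it read 0.261, 0.295, 0.217 and 0.363. Root did not overlap with either organ, and shoot and young leaf overlapped each other. Young leaf was lower than root (log2 -4.15, SE 0.252, adjusted p = 8.87e-13), and so was shoot (log2 -3.40, SE 0.27, adjusted p = 2.48e-10). Young leaf and part of the shoot arrays lie near the array median, where an intensity may be background, so the sizes of these differences are those of the fit and not exact folds. Shoot minus young leaf was 0.76 (95% interval 0.23 to 1.28, adjusted p = 0.0129), which is under 2-fold and was not called, and without shoot replicate 3 it was 1.01 and was called (adjusted p = 0.00302).

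IAA12 was the gene with different levels in all 3 organs. It read 5.28, 5.97 and 4.98 in root, 1.17, 2.21 and 1.36 in shoot, and 0.247, 0.305, 0.221 and 0.311 in young leaf, with no overlap between organs. Young leaf was lower than root (log2 -4.28, SE 0.288, adjusted p = 5.99e-12). Shoot was 3.48-fold lower than root (log2 -1.80, SE 0.308, adjusted p = 2.75e-05) and higher than young leaf (log2 2.48, SE 0.288, adjusted p = 8.09e-08). The young leaf values of IAA12 also lie near the array median, so no exact fold against them is given. All 3 calls held in each alternative run, with log2 ranges of -4.39 to -3.82, -2.07 to -1.61 and 2.10 to 2.67.

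IAA4 read 0.532, 0.308 and 0.367 in root, 0.123, 0.177 and 0.113 in shoot, and 0.121, 0.168, 0.224 and 0.137 in young leaf. The root arrays lay above all others, at levels near the array median. Those of shoot and young leaf lay near or under it, where an intensity may be background. Young leaf minus root was -0.94 (SE 0.263, adjusted p = 0.00362) and shoot minus root was -0.93 (SE 0.281, adjusted p = 0.00703), both just under 2-fold and so not called. With the deposited scaling and no quantile normalization they were -1.17 and -1.37 and both were called, and leaving out root replicate 2 also brought both past the threshold, at -1.14 and -1.13. Young leaf minus root was also called without young leaf replicate 2 (-1.01) or 3 (-1.09) or root replicate 3 (-1.0), and shoot minus root without shoot replicate 2 (-1.02). The 2 differences were -0.31 and -0.56 on the second probe set and -0.89 and -0.95 on the _x_at one. Shoot minus young leaf was 0.01 (95% interval -0.53 to 0.56, adjusted p = 0.975).

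IAA26 read 0.252, 0.324 and 0.321 in root, 0.215, 0.178 and 0.167 in shoot, and 0.193, 0.177, 0.186 and 0.137 in young leaf. These lie near or under the median of the arrays, where an intensity may be background, and detection calls were not used here. Young leaf minus root was -0.43 (95% interval -1.01 to 0.15, adjusted p = 0.195), shoot minus root -0.13 (interval -0.75 to 0.49, adjusted p = 0.737) and shoot minus young leaf 0.30 (interval -0.28 to 0.88, adjusted p = 0.381). None of the 3 passed, and the interval of young leaf minus root reaches to about 2-fold lower. In deposited intensity every root array lay above every array of shoot and young leaf. Over all alternatives run, young leaf minus root ran from -0.70 to -0.28 (lowest adjusted p = 0.0402). Shoot minus root ran from -0.61 to -0.04 (lowest adjusted p = 0.0911), and neither was called in any of them. Whether the organ differences of IAA9 and IAA12 differ from those of IAA4 and IAA26 was not tested.

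**Figure D3:**
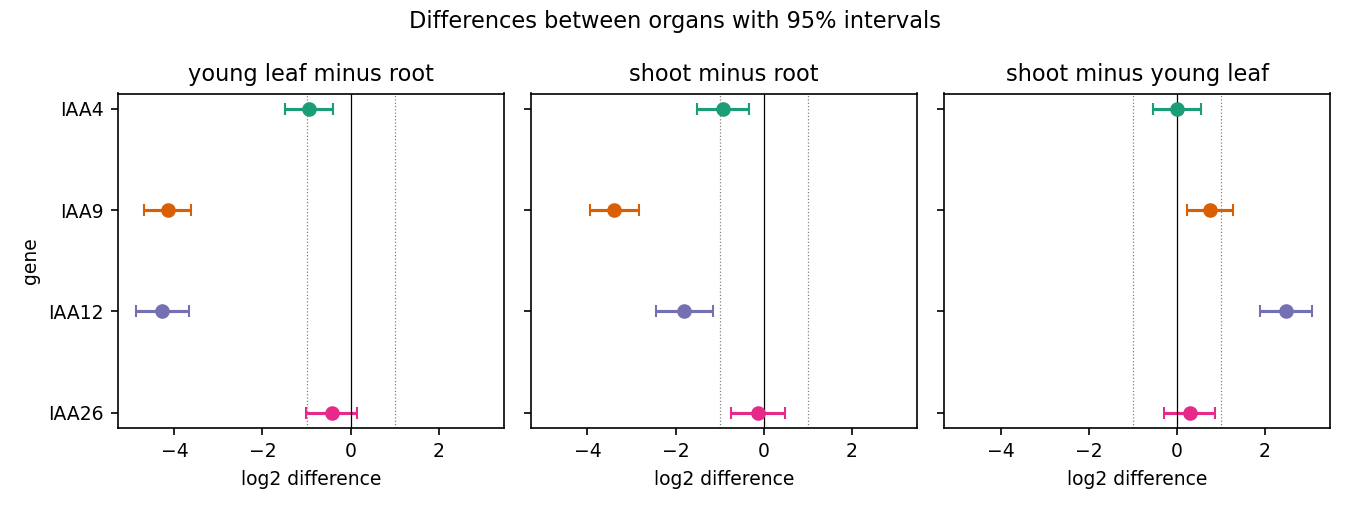
Log2 differences between organs for the 4 genes, 1 panel per pair of organs, with bars for the 95% interval of the fit and dotted lines at a 2-fold difference. IAA9 and IAA12 lie near -4 for young leaf minus root (-4.15 and -4.28), and only IAA12 lies past the upper line for shoot minus young leaf (2.48).

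Ordered by mean level over the 8 groups, IAA9 ran from growing callus through 2 days (5.85), 4 days (5.77), root (5.15), 6 days (2.57), 8 days (2.30) and shoot (0.467) to young leaf (0.284). Its values at 2 days, 4 days and in root overlapped, as did those of 6 and 8 days and those of shoot and young leaf. Root of IAA12 (5.41) took the place after growing callus (6.98) and overlapped with it, ahead of 2 days (3.54) and 4 days (2.78), which overlapped each other. Below them 6 days (1.69), shoot (1.58) and 8 days (1.12) overlapped for IAA12, and young leaf (0.271) stood alone at the bottom. For IAA26 the order was growing callus (3.61), 2 days (2.32), 4 days (2.24), 6 days (0.917), 8 days (0.567), root (0.299), shoot (0.187) and young leaf (0.173). Its breaks without overlap lay between 4 and 6 days and between root and shoot. IAA4 had the same order except that 4 days (2.06) stood just over 2 days (1.92) and young leaf (0.162) just over shoot (0.137), and its values at 8 days (0.707) overlapped with root (0.402). After 8 days on regeneration medium IAA12 thus overlapped with shoot, and IAA9 lay between root and shoot without overlap with either.

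Across the 8 group means of the normalized log2 values, IAA4 and IAA26 correlated with each other at r = 0.986. IAA9 correlated at 0.874 with IAA12, at 0.867 with IAA4 and at 0.807 with IAA26. IAA12 correlated at 0.617 with IAA4 and at 0.588 with IAA26, and the 5 callus groups alone gave 0.927 to 0.995 for all pairs. These points share the arrays on which the genes were chosen, so they describe the profiles and nothing more. Of 2345 other named genes, those closest to IAA9 over the same 8 groups were a gene named chitinase (LOC4351188, r = 0.993), GH3.6 (LOC4337780, 0.978), of the family of enzymes that conjugate auxin and related hormones to amino acids, and the glutathione S-transferase gene GST1 (LOC4334347, 0.972). Closest to IAA12 were the auxin response factor ARF16 (LOC9270361, 0.983), the potassium channel gene OsTPK2 (LOC4326288, 0.951) and CYP734A4 (LOC4341450, 0.942), whose enzyme inactivates brassinosteroids. ORC5 (LOC4334180), a subunit of the origin recognition complex of DNA replication, was closest to IAA26 (0.992), followed by RNAH (LOC4345577, 0.978) and the histidyl-tRNA synthetase gene HisRS (LOC4337830, 0.977). For IAA4 they were MSL1 (LOC4328601, 0.976), HGGT (LOC4341663, 0.975), of vitamin E synthesis, and again ORC5 (0.971). ORC5 went from 1.33 ± 0.122 in growing callus to 0.563 ± 0.172 at 8 days (SD, n = 3 each), and ARF16 from 2.73 ± 0.272 to 1.57 ± 0.0878, with 2.92 in root and 0.835 in young leaf. Pearson r does not take in the size of a change. OsTPK2 went only from 1.009 ± 0.0316 to 0.808 ± 0.188 between the same callus groups, and MSL1 from 0.6305 ± 0.236 to 0.358 ± 0.0844. The growing callus arrays of chitinase (6.655 ± 4.93) and GST1 (42.3 ± 20.1) varied widely. Of these 11 genes, 2 belong to the auxin lists below, which hold 55 of the candidates.

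Genes next to the 4 on the chromosomes were looked up in the RefSeq gene order of assembly ASM3414082v1. Of the 16 nearest, 2 on each side, 9 had a tested probe set, 0 were called lower at 8 days and 1 was called higher, the kinesin gene KIN7J near IAA26 (log2 1.03, adjusted p = 0.000998), beside 2.78% and 5.08% of all tested probe sets called lower and higher. PCNA, the sliding clamp of DNA replication and the neighbour of IAA9, had a log2 change of -0.57 (adjusted p = 0.0255), under 2-fold. IAA11, which lies beside IAA12 and is known for a role in lateral roots, has no single-gene probe set.

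Most of the rest of the Aux/IAA family was not called at any callus time. The annotation matched 24 other Aux/IAA loci, of which 22 had a single-gene probe set and 21 were tested. At 8 days 5 of these 21 were called lower and 2 higher, or 23.8% and 9.52%, against 2.78% and 5.08% of all tested probe sets, and the median log2 change was -0.20 against -0.04 over all probe sets. The other times had 0, 2 and 2 called lower at 2, 4 and 6 days and 2 called higher at each. Of all tested probe sets 2.42%, 3.08% and 2.36% were called lower at those times, and 1.65%, 2.13% and 3.72% higher. The 4 comparisons share the growing callus arrays. IAA20 (LOC4340245) was the nearest to the 4 genes: it stood at 4.23 ± 1.38 in growing callus, 1.08 ± 0.32 at 6 days and 1.44 ± 0.506 at 8 days (SD, n = 3 each). Its log2 change was -1.02 at 4 days (adjusted p = 0.0084), -1.86 at 6 days (adjusted p = 2.05e-05) and -1.49 at 8 days (adjusted p = 0.00019). The 4 genes were chosen for their fall, so their order against IAA20 carries no weight. IAA4, with the smallest 8 day change of the 4, gave -2.17, and its second probe set gave -1.59. At 6 days IAA4 stood at -1.63. Like IAA9 and IAA12, IAA20 was higher in root, at 5.71 ± 0.096, than in young leaf, at 0.136 ± 0.021 (n = 4; log2 -5.25, adjusted p = 4.38e-15).

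IAA15 (LOC4337971) went from 28.8 ± 5.87 to 10.8 ± 1.21 at 8 days (SD, n = 3 each; log2 -1.24, SE 0.15, adjusted p = 2.58e-06) and was also called at 6 days (-1.02), a call lost without growing callus replicate 2 (-0.98) or 3 (-0.92) or 6 day replicate 1 (-1.0). IAA10 (-1.12), IAA6 (-1.03) and IAA23 (-1.27), the last known for root development, were called lower at 8 days alone. IAA23 was read on an _x_at probe set, 1 of 3 of the gene, which can also match related transcripts. IAA13, whose stabilized form is known to block lateral roots, was called lower at 4 days alone (-1.0, adjusted p = 0.0207). The genes that rose were IAA2 (LOC4326775) and IAA7 (LOC4328796), at each of the 4 times. IAA7 stood at 2.71 ± 0.739 in growing callus and 8.18 ± 0.66 at 4 days (SD, n = 3 each; log2 1.66, SE 0.275, adjusted p = 0.00023), and at 6.11 ± 1.94 at 8 days. IAA2 went from 0.345 ± 0.166 to 1.33 ± 0.463 at 4 days (log2 1.87, SE 0.362, adjusted p = 0.00106). Its growing callus level lies near the array median, where an intensity may be background, so the size of its rise is not exact. Of the 21 genes, 3 had every array on regeneration medium below every array of growing callus, which holds for 5.27% of all tested probe sets, and 3 of the 4 chosen genes do.

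Several of these counts rest on single arrays. The 5 lower calls at 8 days became 3 without 8 day replicate 1 and 2 without 8 day replicate 3, while IAA15 and IAA20 kept theirs at 8 days in all 13 alternatives run. The 2 lower calls at 4 days became 0 without growing callus replicate 3, 4 day replicate 1 or 4 day replicate 3. At 6 days the 2 lower calls became 1 without growing callus replicate 2 or 6 day replicate 1. At 2 days the 0 lower calls became 1 without growing callus replicate 2 or 3 or 2 day replicate 1 or 2, and 2 without growing callus replicate 1. The 2 higher calls at 2 days became 1 without growing callus replicate 2 or 3 or 2 day replicate 1 or 3, IAA2 losing its call each time, whereas IAA7 lost a call only at 8 days, without 8 day replicate 2 (log2 0.99).

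**Figure D4:**
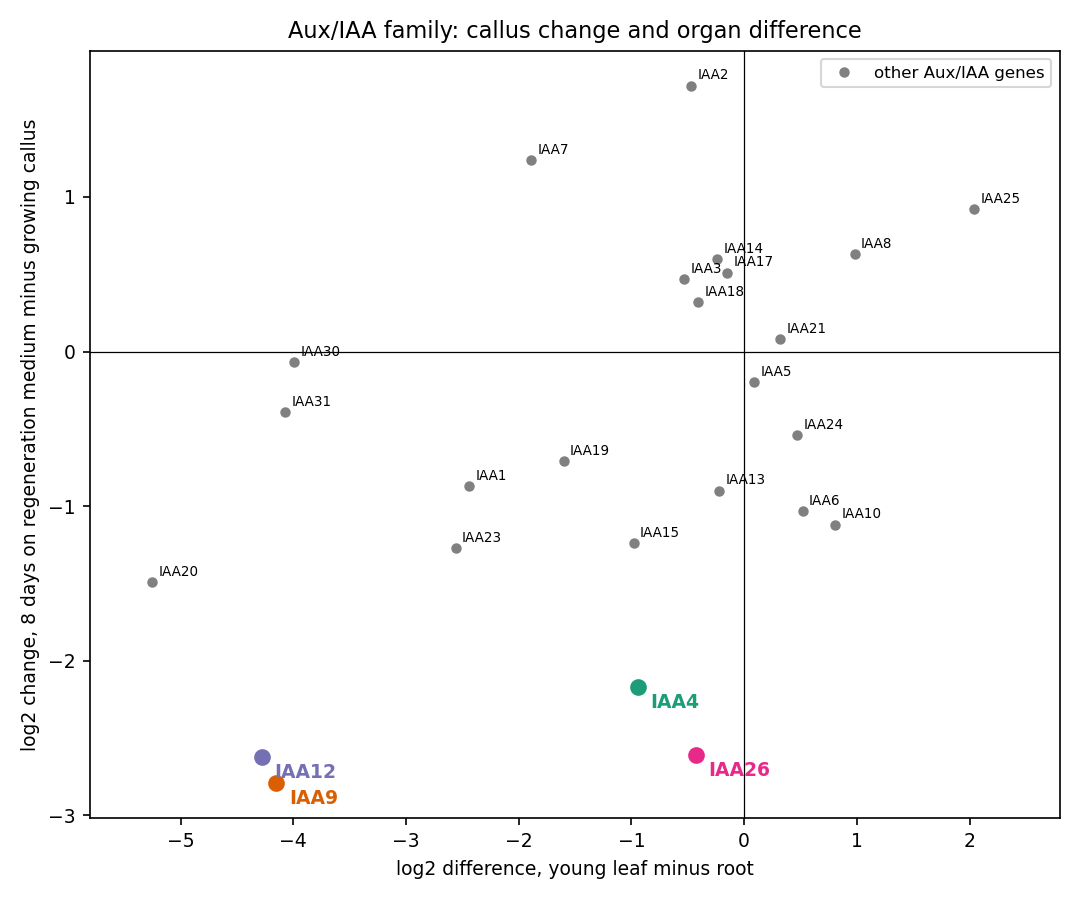
Each point is 1 of the 25 tested Aux/IAA genes, with the log2 difference of young leaf minus root on the horizontal axis and the log2 change after 8 days on regeneration medium on the vertical axis, and the 4 chosen genes in colour. The 4 lie lowest on the vertical axis because they were chosen so; on the horizontal axis IAA9 (-4.15) and IAA12 (-4.28) lie near IAA20 (-5.25), IAA30 and IAA31 (-3.99 and -4.07, named after their values were seen), away from IAA4 (-0.94) and IAA26 (-0.43).

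The rest of the auxin pathway was followed in 34 tested genes of 44 matched by name. Receptors of the TIR1/AFB group were not matched by name and were not analysed here. At 8 days 5 of the 34 were called lower and 3 higher, or 14.7% and 8.82%, against 2.78% and 5.08% of all tested probe sets. The median log2 change was -0.40 against -0.04 over all probe sets. At 2, 4 and 6 days 4, 3 and 4 were called lower and 1, 1 and 3 higher. Of all tested probe sets 2.42%, 3.08% and 2.36% were called lower at those times, and 1.65%, 2.13% and 3.72% higher.

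Among 17 auxin response factors 3 (17.65%) were called lower at 8 days and 0 higher. Which of the 17 bind Aux/IAA proteins was not examined. The shares of all tested probe sets were 2.78% and 5.08%. The 3 were ARF14 (LOC4339313, log2 -1.58, adjusted p = 5.88e-06), ARF3 (LOC4327014, -1.40, adjusted p = 2.88e-06) and ARF13 (LOC9269399, -1.22, adjusted p = 0.000251). ARF13 lost its call without growing callus replicate 3 (-0.95). ARF3 stood at 11.7 ± 1.58 in growing callus, 4.35 ± 0.509 at 2 days and 4.19 ± 1.11 at 8 days (SD, n = 3 each). At 2 days 2 were called lower, ARF3 (-1.38) and ARF2 (-1.21), at 4 days 0 and at 6 days 1, ARF13 (-1.21), a call also lost without growing callus replicate 3 (-0.93). ARF2 was named after its values were seen.

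Of the 9 tested genes of the GH3 family 6 were not called at 8 days. The calls were 2 lower and 1 higher, or 22.2% and 11.1%, beside 2.78% and 5.08% of all tested probe sets. GH3.2 (LOC4326893), which encodes an enzyme that conjugates auxin to amino acids, fell from 64.8 ± 2.82 in growing callus to 24.9 ± 5.47 at 2 days and 19.0 ± 2.14 at 8 days (SD, n = 3 each; log2 -1.59, SE 0.263, adjusted p = 0.000122). GH3.6 also fell, by 1.09 on the log2 scale at 8 days (adjusted p = 0.00169), a call lost without 8 day replicate 3 (-0.98). GH3.1 (LOC4327043) rose from 0.352 ± 0.141 to 1.88 ± 0.586 at 4 days (log2 2.36, SE 0.323, adjusted p = 3.03e-05) and stood at 0.853 ± 0.444 at 8 days. Its growing callus level lies near the array median, where an intensity may be background. Its call at 8 days (log2 1.23) depended on replicate 2 of growing callus (0.83 without it) and of 8 days (0.84 without it). Without growing callus replicate 1 or 4 day replicate 2, the 1 higher call of the 34 at 4 days became 2, and without 2 day replicate 3 that at 2 days became 2. The 3 lower calls at 4 days ran from 2 to 4 over single left-out arrays.

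SAUR39 (LOC9271092), known in rice as a brake on auxin synthesis and transport, fell from 6.3 ± 1.12 in growing callus to 1.97 ± 0.527 at 6 days (SD, n = 3 each; log2 -1.61, adjusted p = 0.000142), and its change at 8 days was -0.72 (adjusted p = 0.0524). Of 5 tested transport genes, OsPIN2 (LOC4341736), an auxin efflux carrier, rose from 0.281 ± 0.0426 to 0.961 ± 0.134 at 6 days (SD, n = 3 each). Its log2 change was 1.67 (adjusted p = 0.000204), from a growing callus level near the array median, where an intensity may be background. At 6 days 1 of the 5 was called higher and 0 lower, or 20% and 0%, beside 3.72% and 2.36% of all tested probe sets. Of 2 synthesis genes OsYUCCA1 (LOC9269185), which encodes an enzyme of the main route of auxin synthesis, rose from 0.817 ± 0.32 to 2.35 ± 0.796 at 8 days (SD, n = 3 each). Its log2 change was 1.51 (adjusted p = 0.000233). At 8 days 1 of the 2 was called higher, beside 5.08% of all tested probe sets. The change of OsYUCCA1 was 0.03 at 2 days and 0.28 at 4 days, and 1.31 at 6 days (adjusted p = 0.00138). These values come from an _x_at probe set, 1 of 2 of the gene, which can also match related transcripts.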

How the data were processed

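The deposited table holds 1 linear intensity value per probe set and array, with the 75th percentile of each array at 1. The submitters' processing notes list GCOS 1.3; how probes were summarized, background removed and detection judged is not given in the sources used here. Per the labels' protocols, labelling started from 500 ng total RNA, and replicate 2 of growing callus, 2 days and 4 days carries an excess of poly(A) controls.

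A pseudocount of 0.0274, a share of 10% of the overall median (0.274), went onto each deposited intensity before log2 was taken, so changes of low genes are understated. Array medians differed by 1.61 times, past a limit of 1.5, and quantile normalization was applied. Tests covered 37218 probe sets that exceeded their array's median in 3 or more arrays, with 187 control probe sets removed. limma (version 3.58.1, R 4.3.3) was fitted to all 25 arrays with a mean per group, 17 residual and 5.41 prior degrees of freedom, and the script was tested on simulated data. The number of arrays limits the precision. Adjusted p-values are limma's.

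Genes were named through the probe annotation and RefSeq (22436 probe sets with 1 gene, 95 with several, 34663 with none). The probe set of highest mean stood for a gene. Named were the 4 genes, every other Aux/IAA gene called at a callus time, in each other auxin class up to 3 called genes of smallest adjusted p at 8 days, and for each of the 4 the 3 genes of highest Pearson r over group means. A synonym that is no clone name counted as a name. LAX1 and LAX2, panicle genes caught by the transport pattern, were left out. The members, lists and tests were chosen with earlier results of these data known.

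Same-numbered arrays of growing callus and 4 days deviated together in all 3 pairs (r = 0.124 to 0.21). The main fit has group means only and does not use this pairing, also at 4 days. The replicate number was used as a block in alternatives, over all arrays or over those 6 alone (the latter chosen after seeing the data). With it the counts at 4 days did not change (2 and 2 for Aux/IAA, 1 and 3 for the other auxin genes). In no other comparison did all 3 pairs deviate together.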

Additional observations from a re-analysis of the deposited data

How the results depend on the processing

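For the 4 genes, the changes at all 4 callus times kept their sign in every alternative run, and so did the calls of IAA9 and IAA12 between root and the other organs and of IAA12 between shoot and young leaf. IAA4 depended on scaling: without quantile normalization young leaf minus root was -1.17, shoot minus root -1.37 (both then called) and shoot minus young leaf -0.19, and over left-out replicates they ran from -1.14 to -0.68, -1.13 to -0.67 and -0.18 to 0.16. Shoot minus young leaf of IAA4 was -0.02 with the replicate block, and on the _x_at probe set it ran from -0.22 to 0.13 over left-out replicates. That of IAA9 ran from 0.51 to 1.01.

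Of the other Aux/IAA genes, over left-out replicates 1 to 2 were higher at 2 days, and 0 to 2, 0 to 2, 1 to 3 and 2 to 6 were lower at 2, 4, 6 and 8 days. The larger pseudocount (50% of the median) gave 1 higher at 2 days and 0 lower at 4 days, the replicate block 1 higher at 2 days, no quantile normalization 1 lower at 2 days, and leaving out the 3 arrays with excess poly(A) controls 1 lower at 2 days and 1 lower at 6 days. With no fold threshold, 5 and 5 were higher at 6 and 8 days and 4, 5, 6 and 9 lower at 2, 4, 6 and 8 days. Of the other auxin genes, 1 to 2 were higher at 2 and at 4 days over left-out replicates, 0 at 2 days without the poly(A) arrays, and with no fold threshold 2, 2, 6 and 7 were higher at 2, 4, 6 and 8 days and 6, 8 and 11 lower at 4, 6 and 8 days. The larger counts follow from the dropped threshold; the cause of the others was not tested. In the other comparisons made here, same-numbered arrays did not deviate together in every pair (r from -0.278 to 0.2). Pairs between different times on regeneration medium were not examined. The block turned no other direction among the 4 genes and moved no other count of calls by over 1.5 times. Levels near the array median, as those of IAA26 in organs, limit what could be detected.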

Other observations

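The other auxin genes were also compared between organs. Of the 21 other Aux/IAA genes, 11 were higher and 2 lower in shoot than in young leaf, or 52.4% and 9.52%, against 16.5% and 15% of all tested probe sets. Against root, 6 were higher and 5 lower in shoot, or 28.6% and 23.8%, beside 15.5% and 13.5% of all tested probe sets. In young leaf 1 was higher and 7 lower than root, or 4.76% and 33.3%, beside 15.5% and 16.5%. IAA30 stood at 16.6 in shoot, 12.3 in root and 0.71 in young leaf (group means), a log2 difference of 4.59 for shoot minus young leaf. IAA25 ran the other way, at 2.36 in young leaf and 0.351 in shoot (-2.55). Of 17 auxin response factors 9 were higher in shoot than in root and 0 lower, or 52.9% and 0%, beside the same 15.5% and 13.5%. Among them was ARF12 (LOC4337363) at 25.4 in shoot, 1.31 in root and 1.74 in young leaf. The efflux carrier gene OsPIN5 (LOC4327533) stood at 13.5 in root and 0.219 in shoot, a log2 difference of -5.63 for shoot minus root. The single genes in this paragraph were chosen after their values were seen. Shoot plants grew in a chamber and the others in a greenhouse, so organ and growth place cannot be told apart here.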
